A study of Mus musculus with 18 samples.

Results

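The genes described here are 9 transcripts known mainly from neutrophils: S100a8, S100a9, Ngp, Stfa2l1, Camp, Ltf, Mmp8, Il1r2 and Mmp9. They are 9 of the 18193 genes that a single-gene probe set represents on the array. They were listed by name, with earlier results of these data known. The single-gene probe set of highest mean level stands for each. RNA from whole lungs of 18 male mice aged 16 weeks was measured with 1 Affymetrix whole-genome mouse array per sample, and the deposited levels are log2 values made with RMA (robust multi-array average). Strain (A/J or C57BL/6) and treatment form 6 groups of 3. Every mouse, the PBS mice included, had been sensitized with 3 weekly intraperitoneal injections of 100 µg of ovalbumin, an egg protein, in alum. Aerosol challenge for 30 min on 3 days in a row began 7 days after the last injection. The A/J PBS and C57BL/6 PBS groups inhaled PBS only, and the A/J ovalbumin and C57BL/6 ovalbumin groups inhaled 1% ovalbumin. The A/J resiquimod and C57BL/6 resiquimod groups also inhaled 1% ovalbumin and received 100 µg of resiquimod (S-28463, R-848), an agonist of Toll-like receptor 7, into the peritoneum 24 hours before each challenge. No group analysed here received resiquimod without ovalbumin challenge, and the labels mention no vehicle injection, so the compound and the injection cannot be told apart.

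Neutrophils build their granules in sequence while they mature in the bone marrow. Azurophil granules with myeloperoxidase and elastase come first, specific granules with lactoferrin, cathelicidin and collagenase follow, and gelatinase granules come last; transcription of most granule genes has ended when the cell enters the blood. S100a8 and S100a9 form calprotectin, a complex that binds calcium and zinc, fills the cytosol of mature neutrophils and is also made by monocytes and squamous epithelium. In whole lung, more neutrophils and more RNA per neutrophil cannot be told apart.

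Several of these genes are neighbours in the genome. S100a8 and S100a9 lie on chromosome 3 with 0 protein-coding genes between them, and Camp, Ngp and Ltf lie on chromosome 9, with 8 protein-coding genes between Camp and Ngp and 20 between Ngp and Ltf. The 250 bases before the transcription start of 6 genes are shown, from RefSeq on build GRCm38.p6, because their levels followed each other over the arrays in pairs: S100a8 with S100a9, Ngp with Camp, and Stfa2l1 with Mmp8. Capitals mark matches on either strand to TTNNGNAA, a form of the site of the C/EBP factors that drive granule genes, and to GAGGAAG, a form of the site of the myeloid factor PU.1.
S100a8 (chr3:90668821-90669070, plus strand): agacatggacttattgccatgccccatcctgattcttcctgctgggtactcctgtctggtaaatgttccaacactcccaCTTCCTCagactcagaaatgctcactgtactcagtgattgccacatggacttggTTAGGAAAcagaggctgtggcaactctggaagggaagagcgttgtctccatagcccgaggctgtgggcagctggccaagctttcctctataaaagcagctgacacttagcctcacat
S100a9 (chr3:90695722-90695971, minus strand): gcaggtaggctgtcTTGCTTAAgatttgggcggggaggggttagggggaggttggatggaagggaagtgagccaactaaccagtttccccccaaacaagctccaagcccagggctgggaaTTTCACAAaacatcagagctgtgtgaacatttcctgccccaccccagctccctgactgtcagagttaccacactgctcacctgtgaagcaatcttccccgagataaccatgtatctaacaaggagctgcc
Ngp (chr9:110419558-110419807, plus strand): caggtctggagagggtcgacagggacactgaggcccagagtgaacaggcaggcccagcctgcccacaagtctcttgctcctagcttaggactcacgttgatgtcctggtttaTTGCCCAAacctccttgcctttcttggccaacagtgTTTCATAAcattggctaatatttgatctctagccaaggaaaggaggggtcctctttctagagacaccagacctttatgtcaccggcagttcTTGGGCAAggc
Camp (chr9:109849457-109849706, minus strand): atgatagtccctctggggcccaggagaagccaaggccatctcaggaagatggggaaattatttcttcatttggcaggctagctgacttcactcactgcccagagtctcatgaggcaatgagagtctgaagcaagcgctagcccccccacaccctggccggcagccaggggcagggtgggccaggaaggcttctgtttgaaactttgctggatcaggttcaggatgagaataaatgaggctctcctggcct
Stfa2l1 (chr16:36156561-36156810, plus strand): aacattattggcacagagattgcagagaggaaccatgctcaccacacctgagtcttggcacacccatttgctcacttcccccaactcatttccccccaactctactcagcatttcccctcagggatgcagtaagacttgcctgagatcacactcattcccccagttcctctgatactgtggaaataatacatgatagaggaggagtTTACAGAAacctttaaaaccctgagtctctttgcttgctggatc
Mmp8 (chr9:7558179-7558428, plus strand): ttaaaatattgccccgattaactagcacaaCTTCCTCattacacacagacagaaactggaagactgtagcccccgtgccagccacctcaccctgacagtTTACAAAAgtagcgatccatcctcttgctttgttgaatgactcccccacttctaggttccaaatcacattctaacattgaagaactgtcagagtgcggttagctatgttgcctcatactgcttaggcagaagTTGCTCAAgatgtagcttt
The TTNNGNAA form is present in 6 of the 8 genes with a RefSeq window, against 36.8% of 32851 windows of the same length, and in Ngp it matches at 138, 102 and 11 bases before the start. GAGGAAG is present in 2 of the 8, at 171 bases before the start of S100a8 and at 220 bases in Mmp8, against 10.6% of windows. A TATAAA box, left in lower case, is present only in S100a8, 30 bases before the start, against 12.4% of windows. None of these matches overlap, Camp and Il1r2 hold neither marked form, and a match is a description of letters, not of binding.

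After resiquimod, 7 of the 9 genes were higher than after ovalbumin alone in A/J lungs and 7 of 9 in C57BL/6 lungs, while 0 were lower in either strain. Stfa2l1 and S100a8 rose most in A/J, 6.98-fold and 5.23-fold, and Stfa2l1 and Ngp in C57BL/6, 5.10-fold and 4.50-fold. Calprotectin, Stfa2l1, Mmp8 and Mmp9 passed the test in both strains, whereas Ltf and Il1r2 passed in A/J and Ngp and Camp in C57BL/6. A gene was called at a limma p under 0.05 after Benjamini-Hochberg adjustment over all 45037 probe sets, of which 3.37% were called higher and 3.75% lower in A/J, and 4.62% higher and 3.20% lower in C57BL/6. The median change of the 9 genes was 1.01 log2 in A/J and 1.35 in C57BL/6, beside 0.00484 and -0.0153 over all probe sets. Because the 9 genes were chosen with earlier results known, their counts and medians beside all probe sets are descriptions, not tests of an excess. Leaving out 1 array at a time left 6 or 7 of the A/J calls and 3 to 5 of the C57BL/6 calls. Ovalbumin against PBS gave 0 calls among the 9 in either strain. Of all probe sets, 2.08% were called higher and 1.07% lower in A/J, and 0.875% and 0.187% in C57BL/6. At an unadjusted p under 0.05 there were 3 of the 9 in A/J and 1 in C57BL/6. The share of all probe sets at that unadjusted threshold is not given, so no excess can be read from these 2 counts.

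**Figure D1:**
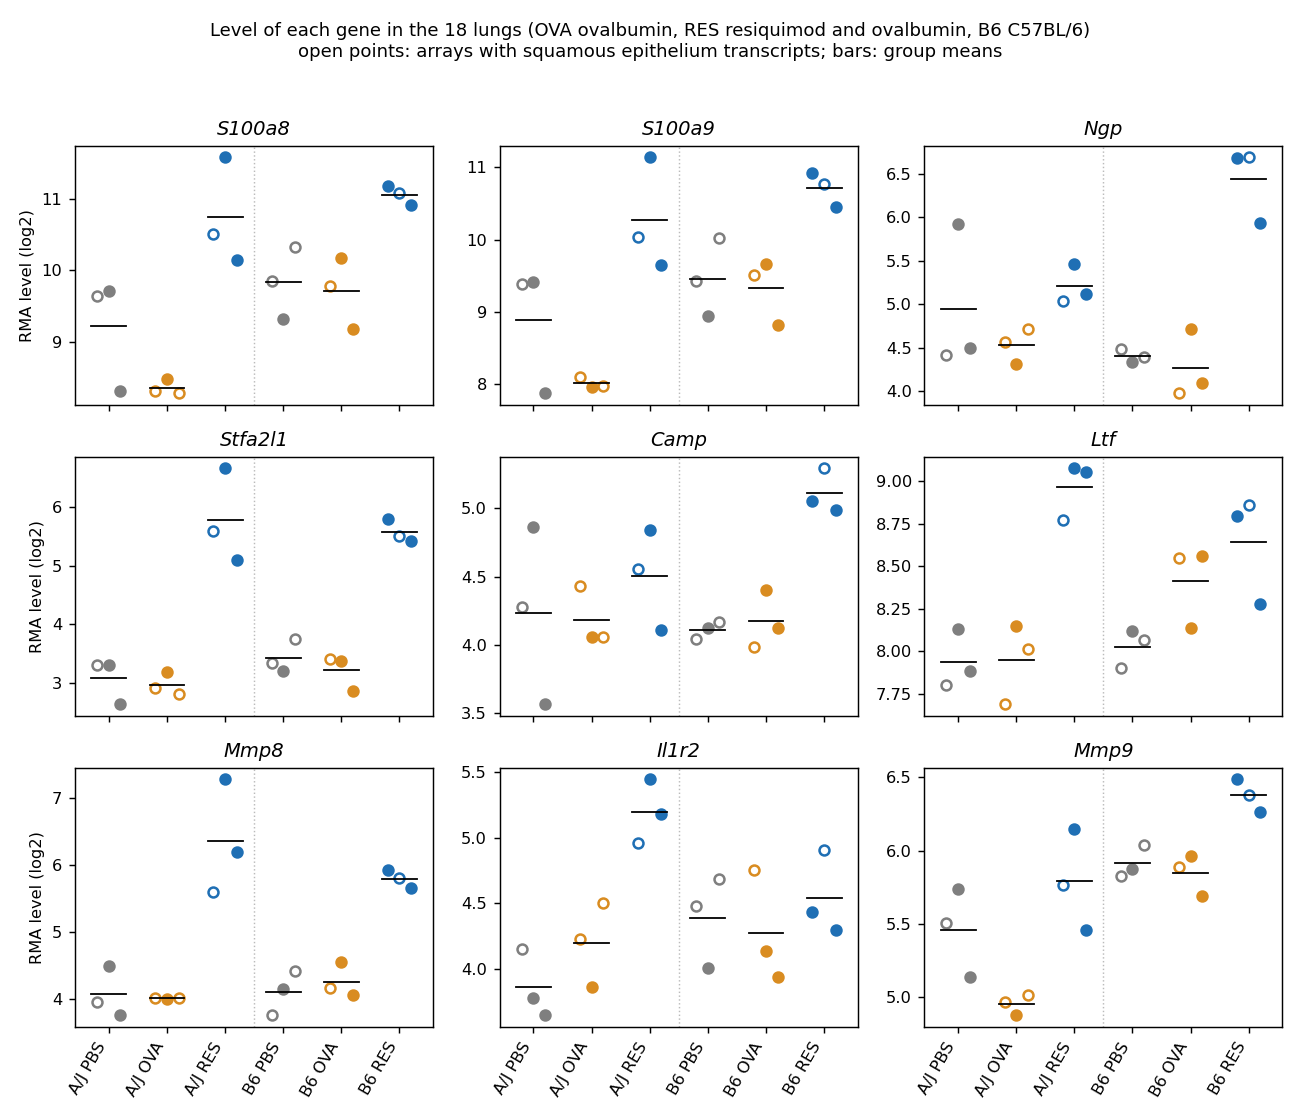
RMA level (log2) of the 9 genes in each of the 18 lungs, by strain and treatment, with bars at group means and open points for arrays that hold squamous epithelium transcripts. Stfa2l1 and Mmp8 in the resiquimod lungs lie above all PBS and ovalbumin lungs of both strains, and Ngp does so only in C57BL/6.

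S100a8 encodes the smaller calprotectin subunit. In A/J its levels were 9.64, 9.71 and 8.31 after PBS, 8.32, 8.48 and 8.28 after ovalbumin, and 10.51, 11.58 and 10.15 after resiquimod. In C57BL/6 they were 9.86, 9.33 and 10.33 after PBS, 9.78, 10.17 and 9.18 after ovalbumin, and 11.18, 11.08 and 10.92 after resiquimod. The 3 resiquimod lungs of each strain thus lay above all other lungs of that strain, the A/J ovalbumin lungs were the lowest and tightest group, and 1 A/J PBS lung sat with them. Resiquimod minus ovalbumin was 2.39 ± 0.38 (SE) in A/J (5.23-fold, adjusted p = 0.000726) and 1.35 ± 0.38 in C57BL/6 (2.55-fold, adjusted p = 0.0369). The A/J call held in all 6 fits that leave out 1 array, whereas the C57BL/6 call was lost in 5 of 6, all but the fit without C57BL/6 ovalbumin replicate 2, with adjusted p from 0.0351 to 0.146. That ovalbumin array stood apart in a sign of RNA quality, given with the signals of other cells. This probe set is of a kind that can also match similar transcripts.

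S100a9, the larger subunit, followed S100a8 closely. Its levels in A/J were 9.38, 9.42 and 7.88 after PBS, 8.09, 7.96 and 7.98 after ovalbumin, and 10.04, 11.14 and 9.65 after resiquimod. In C57BL/6 they were 9.42, 8.94 and 10.02 after PBS, 9.51, 9.67 and 8.82 after ovalbumin, and 10.92, 10.77 and 10.45 after resiquimod. Again the resiquimod lungs of each strain were above the rest of that strain, and the third A/J PBS lung was as low as the ovalbumin lungs. The change against ovalbumin was 2.26 ± 0.40 in A/J (adjusted p = 0.00190) and 1.38 ± 0.40 in C57BL/6 (adjusted p = 0.0442). Leaving out any 1 of the 6 C57BL/6 arrays ended that call, with adjusted p from 0.0596 to 0.163, while the A/J call held in all 6 such fits.

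Ngp encodes neutrophilic granule protein, a cystatin- and cathelicidin-related component of specific granules. In C57BL/6 it rose from 4.49, 4.34 and 4.39 after PBS and 3.98, 4.72 and 4.09 after ovalbumin to 6.69, 6.69 and 5.93 after resiquimod. A/J lungs had 4.42, 5.92 and 4.49 after PBS, 4.56, 4.32 and 4.71 after ovalbumin, and 5.04, 5.46 and 5.12 after resiquimod. All 3 C57BL/6 resiquimod lungs were therefore above every A/J lung, and an A/J PBS lung exceeded the A/J resiquimod lungs. The change against ovalbumin was 2.17 ± 0.31 in C57BL/6 (4.50-fold, adjusted p = 0.000280) and held in all 6 fits without 1 array. The A/J difference was 0.68 ± 0.31 with a 95% interval from 0.0149 to 1.34 (adjusted p = 0.243), although the 3 resiquimod lungs did not overlap the ovalbumin lungs.

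Camp, the precursor of the antimicrobial peptide cathelicidin, had the same strain pattern at a smaller size. Its C57BL/6 levels were 4.05, 4.13 and 4.16 after PBS, 3.99, 4.41 and 4.13 after ovalbumin, and 5.06, 5.29 and 4.99 after resiquimod. Its A/J levels were 4.28, 4.86 and 3.57 after PBS, 4.43, 4.06 and 4.06 after ovalbumin, and 4.56, 4.84 and 4.11 after resiquimod, groups that overlapped throughout. Resiquimod minus ovalbumin came to 0.94 ± 0.24 in C57BL/6 (1.92-fold, adjusted p = 0.0226) and to 0.32 ± 0.24 in A/J (95% interval -0.191 to 0.827, adjusted p = 0.529). In 4 of 6 fits with 1 array fewer the C57BL/6 value missed the threshold, those without ovalbumin replicate 1 or 3 and without resiquimod replicate 1 or 2, with adjusted p from 0.0301 to 0.0851.

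Ltf encodes lactoferrin, the iron-binding protein of specific granules that airway glands also secrete. A/J lungs had 7.80, 8.13 and 7.88 after PBS, 7.69, 8.15 and 8.01 after ovalbumin, and 8.77, 9.07 and 9.05 after resiquimod, so that the resiquimod group stood clear of both others. In C57BL/6 the levels were 7.90, 8.12 and 8.06 after PBS, 8.55, 8.13 and 8.56 after ovalbumin, and 8.79, 8.86 and 8.28 after resiquimod, and the last 2 groups overlapped. Resiquimod minus ovalbumin was 1.01 ± 0.16 in A/J (2.02-fold, adjusted p = 0.000746) and 0.23 ± 0.16 in C57BL/6 (95% interval -0.112 to 0.570, adjusted p = 0.475). Against PBS it passed in both strains, with 1.03 ± 0.16 in A/J (adjusted p = 0.000569) and 0.62 ± 0.16 in C57BL/6 (adjusted p = 0.0174). That C57BL/6 call was lost without PBS replicate 1, resiquimod replicate 1 or resiquimod replicate 2, with adjusted p from 0.00330 to 0.0842 over the 6 fits.

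Mmp8 encodes neutrophil collagenase, stored in specific granules. Its A/J levels were 3.96, 4.49 and 3.77 after PBS, 4.02, 4.00 and 4.02 after ovalbumin, and 5.59, 7.27 and 6.19 after resiquimod. Its C57BL/6 levels were 3.76, 4.15 and 4.42 after PBS, 4.17, 4.56 and 4.06 after ovalbumin, and 5.93, 5.81 and 5.65 after resiquimod. Each of the 6 resiquimod lungs was above each of the other 12 lungs, and the A/J lungs spread more widely. The change against ovalbumin was 2.34 ± 0.30 in A/J (adjusted p = 0.000103) and 1.54 ± 0.30 in C57BL/6 (2.90-fold, adjusted p = 0.00352), and both calls held in all 6 fits without 1 array.

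Mmp9 encodes gelatinase B, the matrix protease of gelatinase granules, which macrophages also make. In A/J it was at 5.51, 5.74 and 5.14 after PBS, 4.97, 4.88 and 5.01 after ovalbumin, and 5.77, 6.14 and 5.46 after resiquimod. C57BL/6 lungs had 5.83, 5.88 and 6.04 after PBS, 5.89, 5.96 and 5.69 after ovalbumin, and 6.48, 6.38 and 6.27 after resiquimod. By this probe set the resiquimod lungs lay above the ovalbumin lungs in each strain, and the A/J ovalbumin lungs were below all 15 others. Resiquimod minus ovalbumin was 0.84 ± 0.15 in A/J (adjusted p = 0.00256) and 0.53 ± 0.15 in C57BL/6 (adjusted p = 0.0431). The C57BL/6 call was lost in each of the 6 fits without 1 array, with adjusted p from 0.0620 to 0.148. A further Mmp9 probe set gave changes of 0.69 ± 0.26 (adjusted p = 0.138) in A/J and 0.78 ± 0.26 (adjusted p = 0.0799) in C57BL/6, which ends both calls. It did not keep the A/J separations either. Its A/J ovalbumin lungs, at 4.86, 4.46 and 4.83, overlapped the resiquimod lungs (lowest 4.79) and the PBS lungs (lowest 4.54). In C57BL/6 the resiquimod lungs stayed above the ovalbumin lungs.

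Stfa2l1 belongs to the mouse stefin A cluster of cytosolic cysteine protease inhibitors, whose near-identical copies can share probes, so its identity is uncertain. It was at 3.30, 3.32 and 2.65 after PBS, 2.92, 3.19 and 2.82 after ovalbumin, and 5.59, 6.65 and 5.10 after resiquimod in A/J. The C57BL/6 levels were 3.35, 3.21 and 3.74 after PBS, 3.42, 3.38 and 2.87 after ovalbumin, and 5.79, 5.51 and 5.42 after resiquimod. In PBS and ovalbumin lungs the signal was near 3.33, the lower quartile of all values, and in resiquimod lungs it was above the median of all values, 4.78. The change against ovalbumin was 2.80 ± 0.29 in A/J (adjusted p = 1.45e-05) and 2.35 ± 0.29 in C57BL/6 (5.10-fold, adjusted p = 7.11e-05), with 0 of 12 fits without 1 array losing the call.

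Il1r2 encodes the decoy receptor that binds interleukin 1 without signalling and is carried by neutrophils and monocytes. Its A/J levels were 4.15, 3.78 and 3.65 after PBS, 4.22, 3.86 and 4.50 after ovalbumin, and 4.96, 5.44 and 5.18 after resiquimod. In C57BL/6 they were 4.48, 4.01 and 4.68 after PBS, 4.76, 4.14 and 3.94 after ovalbumin, and 4.43, 4.90 and 4.29 after resiquimod. The A/J resiquimod lungs were above all 15 other lungs, while the 3 C57BL/6 groups overlapped. The change against ovalbumin was 1.00 ± 0.23 in A/J (2.00-fold, adjusted p = 0.0140) and 0.27 ± 0.23 in C57BL/6 (95% interval -0.227 to 0.761, adjusted p = 0.588). The A/J call was lost without A/J ovalbumin replicate 2 or A/J resiquimod replicate 2, with adjusted p from 0.0150 to 0.0702 over the 6 fits.

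**Figure D2:**
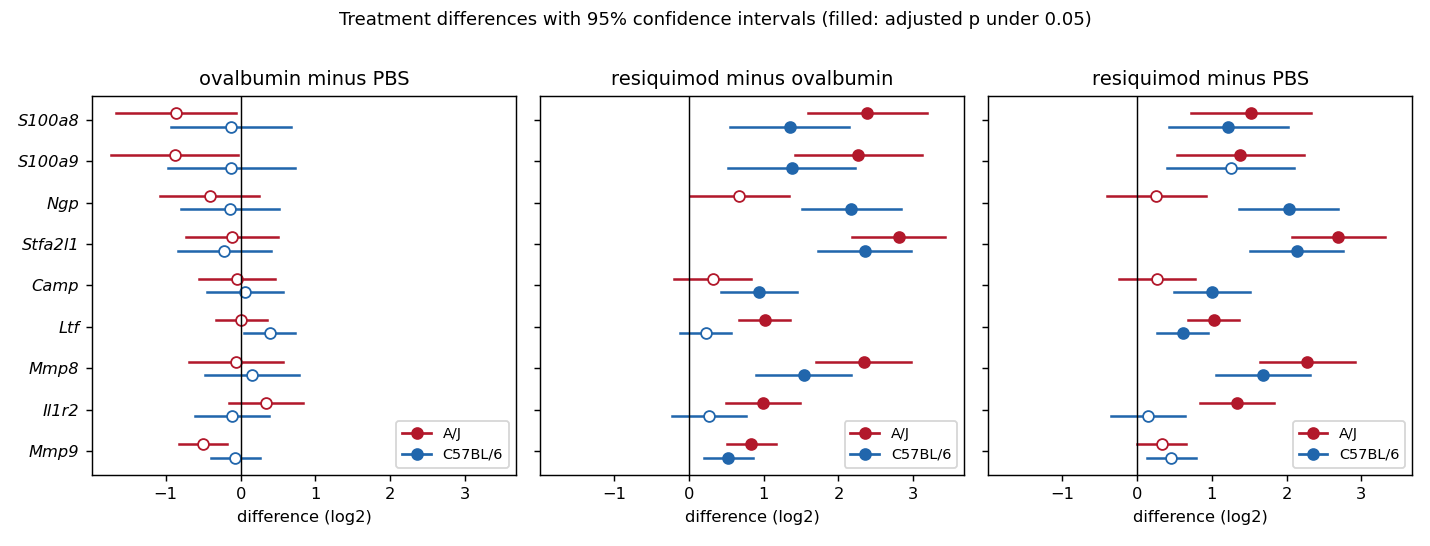
Differences of the 9 genes (log2, points) with 95% confidence intervals (lines) for each pair of treatments, A/J in red and C57BL/6 in blue, filled where the adjusted p is under 0.05. Filled points appear only in the 2 resiquimod panels, 14 against ovalbumin and 12 against PBS, and all of them are to the right of 0.

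Against PBS, 6 of the 9 genes were higher after resiquimod in each strain and 0 were lower, where 4.10% of all probe sets were called higher and 3.98% lower in A/J, and 7.09% and 5.32% in C57BL/6. These comparisons share the resiquimod arrays with those against ovalbumin, so they are not independent of them. S100a8, Stfa2l1, Ltf and Mmp8 passed in both strains. Stfa2l1 rose by 2.69 ± 0.29 in A/J and 2.13 ± 0.29 in C57BL/6, and Mmp8 by 2.28 ± 0.30 and 1.69 ± 0.30. S100a8 rose by 1.53 ± 0.38 in A/J (adjusted p = 0.0176) and 1.22 ± 0.38 in C57BL/6 (adjusted p = 0.0433). The A/J call of S100a8 was lost without PBS replicate 3 or resiquimod replicate 2, and its C57BL/6 call in 5 of 6 fits, all but the one without PBS replicate 3. S100a9 rose by 1.38 ± 0.40 in A/J (adjusted p = 0.0422), a call lost without PBS replicate 3, resiquimod replicate 1 or resiquimod replicate 2, and differed by 1.25 ± 0.40 in C57BL/6 (adjusted p = 0.0508). Il1r2 rose in A/J (1.34 ± 0.23, adjusted p = 0.00137), against 0.15 ± 0.23 in C57BL/6. Ngp (2.03 ± 0.31, adjusted p = 0.000295) and Camp (1.00 ± 0.24, adjusted p = 0.0104) rose in C57BL/6, against 0.26 ± 0.31 and 0.27 ± 0.24 in A/J. Mmp9 missed the threshold in both strains, at 0.33 ± 0.15 (adjusted p = 0.230) and 0.46 ± 0.15 (adjusted p = 0.0605). The further Mmp9 probe set was called in C57BL/6, at 0.84 ± 0.26 (adjusted p = 0.0441), and not in A/J (0.34 ± 0.26, adjusted p = 0.526).

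The separation of single lungs gave a similar count. The 3 resiquimod lungs lay above the 3 ovalbumin lungs for 8 of the 9 genes in A/J, where 10.9% of all probe sets did so, and for 7 in C57BL/6, where 12.5% did. Mmp9 is among the 8 in A/J, but by its further probe set these A/J groups overlapped. Above the PBS lungs they lay for 6 genes in A/J (12.3% of all probe sets) and for 8 in C57BL/6 (15.0%).

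Ovalbumin challenge on its own left the 9 genes without a call. In A/J the differences from PBS ran from -0.88 for S100a9 to 0.34 for Il1r2, and S100a8 (-0.86 ± 0.38, adjusted p = 0.289), S100a9 (-0.88 ± 0.40, adjusted p = 0.311) and Mmp9 (-0.50 ± 0.15, adjusted p = 0.0931) were the lowest. Without A/J PBS replicate 3, the PBS lung with low calprotectin, Mmp9 passed the threshold. The A/J difference of S100a8 was then -1.32 and still not called. The further Mmp9 probe set gave -0.35 ± 0.26 in A/J over all arrays (adjusted p = 0.605), with overlapping groups. In C57BL/6 the differences ran from -0.22 for Stfa2l1 to 0.39 for Ltf, the latter with a 95% interval from 0.0465 to 0.728 (adjusted p = 0.390). The intervals of S100a8, -1.66 to -0.0621 in A/J and -0.925 to 0.673 in C57BL/6, show how wide a change these arrays leave possible.

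Between the strains, PBS lungs differed for 0 of the 9 genes at the threshold. Of all probe sets, 4.11% were called higher and 4.43% lower in A/J than in C57BL/6. At an unadjusted p under 0.05 there were 2 of the 9, a count without a share of all probe sets at that threshold. Ovalbumin lungs of A/J were lower for 3 genes and higher for 0, where 4.07% of probe sets were called higher and 4.78% lower. These were S100a8 (-1.35 ± 0.38, adjusted p = 0.0325), S100a9 (-1.32 ± 0.40, adjusted p = 0.0495) and Mmp9 (-0.89 ± 0.15, adjusted p = 0.000865). All 3 A/J ovalbumin lungs were below all 3 C57BL/6 ovalbumin lungs for each of them. The calprotectin calls each held in 1 of 6 fits without 1 array, that without C57BL/6 ovalbumin replicate 3, whereas the Mmp9 call held in all 6 and with the further Mmp9 probe set (-0.90 ± 0.26, adjusted p = 0.0381).

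Resiquimod lungs of A/J were lower than those of C57BL/6 for 2 of the 9 genes and higher for 0, where 6.55% of probe sets were called higher and 7.48% lower. Ngp differed by -1.23 ± 0.31 (2.34-fold lower, adjusted p = 0.0125) and Mmp9 showed -0.58 ± 0.15 (adjusted p = 0.0154), or -0.995 ± 0.259 with the further probe set (adjusted p = 0.0148). The Ngp call was lost without C57BL/6 resiquimod replicate 1 or 2, and the Mmp9 call without A/J resiquimod replicate 3 or C57BL/6 resiquimod replicate 1. For S100a8 (-0.31 ± 0.38) and S100a9 (-0.44 ± 0.40) the strain difference seen after ovalbumin did not pass after resiquimod. Il1r2 was at 0.65 ± 0.23 (adjusted p = 0.0789) with the 3 A/J lungs above the 3 C57BL/6 lungs.

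The test of the difference between the strains' responses called 0 of the 9 genes, for ovalbumin and for resiquimod; over all probe sets it called 0.0311% higher and 0.0155% lower in A/J for the ovalbumin effect and 0.264% and 0.575% for the resiquimod effect. At an unadjusted p under 0.05 there were 0 for ovalbumin and 3 for resiquimod, again without a share of all probe sets at that threshold. The resiquimod effect (against ovalbumin) in A/J minus that in C57BL/6 was -1.50 ± 0.44 for Ngp (95% interval -2.43 to -0.563, adjusted p = 0.130) and -0.62 ± 0.34 for Camp (adjusted p = 0.466). The same difference was 0.79 ± 0.23 for Ltf (95% interval 0.304 to 1.27, adjusted p = 0.123) and 0.73 ± 0.33 for Il1r2 (adjusted p = 0.353). Calls in 1 strain for Ngp, Camp, Ltf and Il1r2 are therefore not shown to differ between the strains by this test. For S100a8 the difference of effects was 1.04 ± 0.53, with an interval from -0.0919 to 2.17 that covers both equal rises and a rise larger in A/J.

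**Figure D3:**
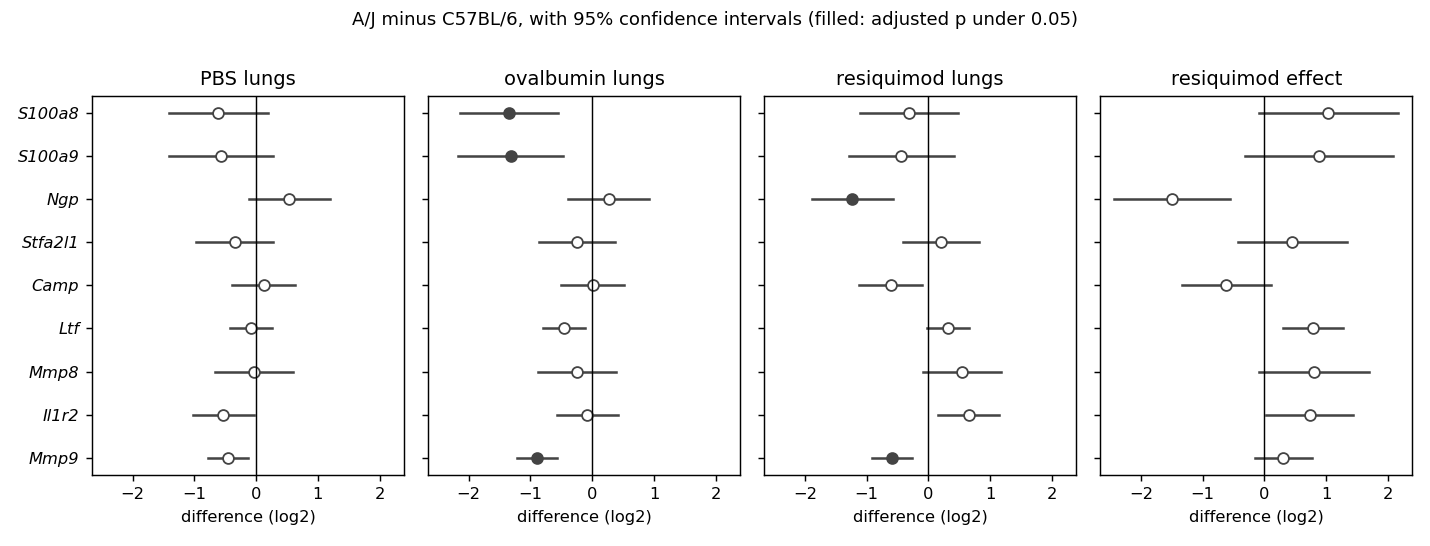
A/J minus C57BL/6 (log2, points) with 95% confidence intervals (lines) for the 9 genes in PBS, ovalbumin and resiquimod lungs and, on the right, for the change from ovalbumin to resiquimod, filled where the adjusted p is under 0.05. Filled points are S100a8, S100a9 and Mmp9 after ovalbumin and Ngp and Mmp9 after resiquimod, all to the left of 0, and the right panel has none.

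The order of the group means differed by gene. C57BL/6 resiquimod lungs ranked highest for S100a8 (11.06), S100a9 (10.71), Ngp (6.43), Camp (5.11) and Mmp9 (6.38), and A/J resiquimod lungs for Stfa2l1 (5.78), Ltf (8.97), Mmp8 (6.35) and Il1r2 (5.19). Neighbours at the top overlapped between the strains for S100a8, S100a9, Stfa2l1, Ltf and Mmp8. A/J ovalbumin lungs ranked lowest for S100a8, S100a9, Stfa2l1, Mmp8 and Mmp9, A/J PBS lungs for Ltf and Il1r2, and C57BL/6 lungs for Camp (PBS) and Ngp (ovalbumin).

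Mice of 1 group differed most after PBS and after resiquimod in A/J, where the SD over 3 lungs reached 0.88 for S100a9 and 0.85 for Mmp8; the highest SD in the A/J ovalbumin group was 0.32, for Il1r2. Single lungs deviated from their group in many of the 9 genes at once. The second A/J resiquimod lung was above its group mean for 9 of 9 genes, by 0.53 log2 on average, and the second A/J PBS lung for 8. The third A/J PBS lung was below for 9 of 9 (mean deviation -0.49), and the third C57BL/6 resiquimod lung was below for 9 of 9 (mean deviation -0.23). The labels attach no dose, weight or cell count to single mice, and what these lungs share was not tested.

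**Figure D4:**
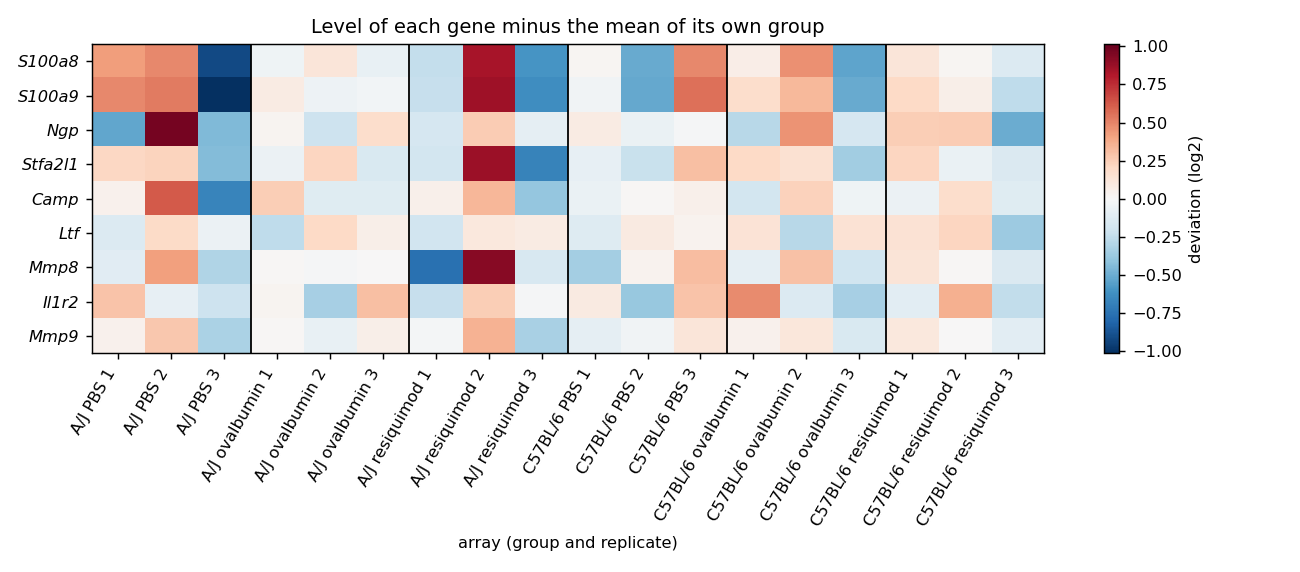
Level of each gene minus the mean of its own group (log2, colour) in each of the 18 arrays, with black lines between groups. The column of the second A/J resiquimod lung is red for all 9 genes, and those of the third A/J PBS lung and the third C57BL/6 resiquimod lung are blue for all 9.

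With group means removed, S100a8 and S100a9 kept r = 0.98 over the 18 lungs, and Mmp9 followed them with r of 0.89 and 0.91 and Stfa2l1 with 0.91 and 0.90. Ngp was nearest to Camp (0.71), whereas Ltf stayed below 0.33 with each of the other genes, its lowest value being 0.039 with S100a8. These are descriptions over the same 18 arrays, with no test. Over the 18 lungs with treatment differences left in, the genes most like each member among 2601 named genes spanning at least 1 log2 were partly neutrophil genes. The G-CSF receptor Csf3r followed S100a8 with r = 0.94 (0.96 within groups), ahead of Igsf6, Ifitm6 and Slfn1, and the order for S100a9 was S100a8, Csf3r, Ifitm6, Mmp9 and Slfn1. Mmp9 was nearest to S100a9 (0.91), S100a8, Sirpb1a, Ifitm6 and Dleu2. Stfa2l1 was nearest to the natural killer receptor gene Klrc1 (0.96 overall but 0.52 within groups), Igsf6, Mmp8, Ms4a6b and Cd7, and Mmp8 to Stfa2l1 (0.96), Nfkbiz, Ms4a6b, Igsf6 and Klrc1. Ngp was nearest to Camp (0.88), Ripor2, Rap1gap2, Cd300c2 and Arhgap45, and Camp to Acap1 (0.92), Ripor2, Ngp, Tbc1d10c and the T cell receptor segment Trbv1. Ltf was nearest to Mmp8 (0.84), Inpp5d, Milr1, Ms4a6c and Fcgr1, and Il1r2 to F13a1 (0.80), Clec4d, Ahcy, Mt2 and Plcxd2.

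Other neutrophil genes were counted from lists of 105 companion genes in all, in the same resiquimod against ovalbumin comparisons. Of the remaining specific granule genes, 4 rose and 2 fell of 12 in A/J and 3 rose and 1 fell in C57BL/6, with median changes of 0.25 and -0.071. Lcn2, the iron-scavenging lipocalin, rose by 1.20 ± 0.15 and 0.64 ± 0.15, Cybb, the catalytic subunit of the phagocyte oxidase, by 1.14 ± 0.12 and 1.28 ± 0.12, and the peptidoglycan-binding Pglyrp1 by 1.03 ± 0.14 in C57BL/6, against 0.12 ± 0.14 in A/J. Chil3, a chitinase-like protein that macrophages also make, fell by 0.77 ± 0.11 in A/J. Ovalbumin against PBS raised both in each strain, Lcn2 by 1.44 ± 0.15 in A/J and 0.70 ± 0.15 in C57BL/6 and Chil3 by 2.29 ± 0.11 and 1.11 ± 0.11.

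The azurophil list holds genes of the granules made earliest in the marrow and also the inhibitor gene Serpinb1a, which is not a granule protease. Its genes passed in 1 of 7 cases in A/J and 3 of 7 in C57BL/6, Serpinb1a among the latter, all higher (medians 0.092 and 0.38). The signal was low for Elane, neutrophil elastase, and Mpo, myeloperoxidase. Their group means ran from 3.37 to 3.48 and from 3.43 to 4.00, near the lower quartile of all values. The mean level of the azurophil list was higher, from 5.23 to 5.75 over the arrays, above the median of all values, 4.78. The protease Prtn3 rose by 0.98 ± 0.28 in A/J, and in C57BL/6 Ctsg, cathepsin G, rose by 0.48 ± 0.09 and Serpinb1a, an inhibitor of these proteases, by 0.89 ± 0.18. Mpo rose only against PBS in A/J (0.57 ± 0.14) among the 6 treatment comparisons. Of the gelatinase granule and secretory vesicle genes 3 of 6 rose in each strain and 1 fell in A/J, with medians of 0.38 and 0.76. The integrin chain Itgam rose by 1.25 ± 0.28 in A/J and 2.01 ± 0.28 in C57BL/6, its partner Itgb2 by 0.50 ± 0.11 and 1.26 ± 0.11, and the formyl peptide receptor Fpr2 by 1.13 ± 0.19 and 1.63 ± 0.19, while the phosphatase Alpl fell by 0.64 ± 0.16 in A/J.

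Genes of the mature neutrophil surface and cytosol passed in 11 of 22 cases in A/J (10 higher, 1 lower) and in 6 of 22 in C57BL/6 (5 higher, 1 lower), with medians of 0.55 and 0.39. The C-type lectins Clec4d (1.67 ± 0.23) and Clec4e (1.39 ± 0.34) rose in A/J, and Clec4e rose by 1.13 ± 0.34 in C57BL/6. Trem3, a myeloid receptor, rose by 1.09 ± 0.19 in A/J and 1.29 ± 0.19 in C57BL/6, as did Wfdc21 by 1.12 ± 0.21 and 1.22 ± 0.21. These genes had the largest called changes of the list over the treatment comparisons, so they do not stand for all 22. The genes called lower are not named. Csf3r, which tracked calprotectin most closely, did not pass (0.91 ± 0.28, adjusted p = 0.0586, and 0.66 ± 0.28, adjusted p = 0.183). All 4 measured oxidase genes rose in C57BL/6 and 2 of 4 in A/J (medians 1.02 and 0.47), led by the GTPase Rac2 with 1.69 ± 0.19 and 0.91 ± 0.19 and Ncf4 with 1.24 ± 0.15 and 0.79 ± 0.15. Of 6 granulocyte transcription factor genes 1 rose in A/J, Cebpb (0.38 ± 0.10), and 2 in C57BL/6, Spi1, which encodes PU.1 (0.71 ± 0.13), and Gfi1 (0.67 ± 0.14). Stefins and the cathepsins they inhibit passed in 2 of 6 cases in A/J, Ctsh (0.34 ± 0.08) and Ctsl (0.36 ± 0.09), and in 1 of 6 in C57BL/6, Ctss (0.30 ± 0.08).

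**Figure D5:**
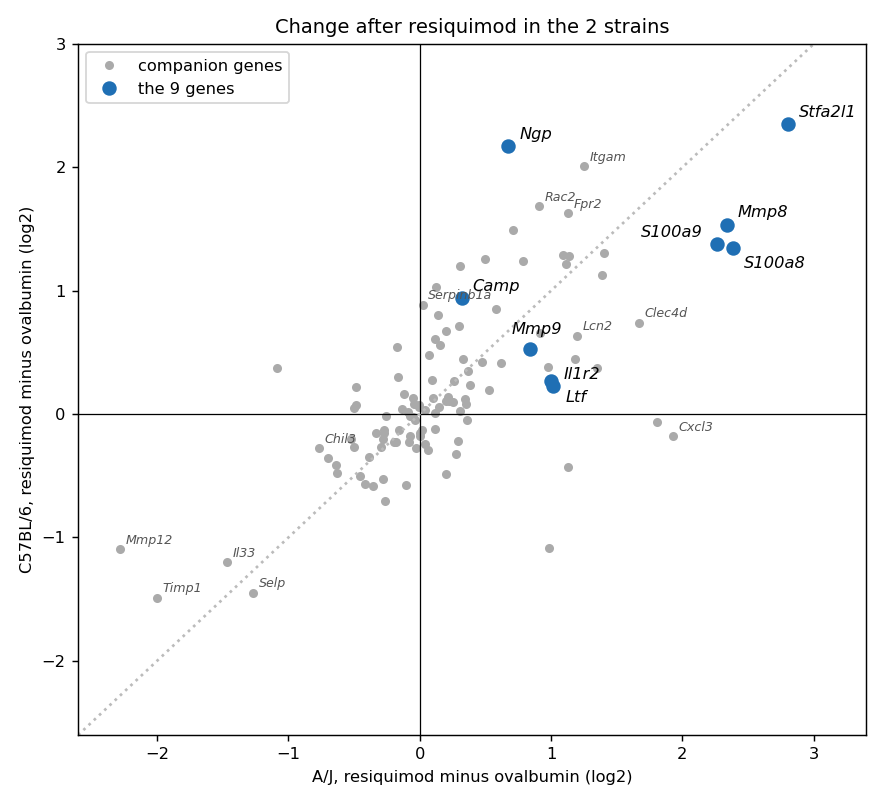
Change from ovalbumin to resiquimod (log2) in A/J (horizontal) and C57BL/6 (vertical) for the 9 genes in blue and 105 companion genes in grey, with a dotted line of equal change. Stfa2l1, Mmp8, S100a8 and S100a9 lie far to the upper right below the line, and Ngp lies above it.

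Signals of other cells and tissue moved with some of these comparisons, and their part in the results was not tested. Between ovalbumin and resiquimod, T and NK cell markers were higher in 5 of 10 cases in A/J (1 was lower) and 6 of 10 in C57BL/6, their mean level going from 5.20 to 5.34 to a range of 6.64 to 6.97 in A/J and from 5.54 to 5.65 to a range of 7.36 to 7.57 in C57BL/6. Macrophage markers rose in 5 of 11 and 7 of 11 cases (8.57 to 8.74 against 8.85 to 9.19 in A/J, 8.10 to 8.42 against 8.65 to 8.89 in C57BL/6), and monocyte markers in 3 of 9, with 1 lower, and 4 of 9 (7.94 to 8.16 against 8.10 to 8.94, and 8.27 to 8.35 against 8.74 to 8.80). B cell markers rose in 4 of 5 cases in C57BL/6 (5.93 to 6.25 against 7.22 to 7.57) and 0 of 5 in A/J (5.41 to 6.68 against 6.28 to 6.92). Eosinophil markers fell in 5 of 6 cases in A/J (4.59 to 4.93 against 3.66 to 4.03), while in C57BL/6 2 of 6 fell and 1 rose (4.13 to 4.25 against 3.85 to 4.22). Red cell markers fell in 2 of 5 cases in each strain (4.77 to 5.01 against 4.01 to 4.09, and 4.71 to 4.87 against 3.62 to 3.69). Megakaryocyte and platelet markers rose in 3 of 6 cases in A/J (5.94 to 6.04 against 6.48 to 6.59) and 0 of 6 in C57BL/6, and of 8 mast cell and basophil markers 0 were called in either strain. Squamous epithelium, a source of S100a8 and stefins, was read from 19 keratin and envelope genes: 8 arrays had a mean level of 6.51 to 7.45 and Krt13 at 10.68 to 11.93, and 10 arrays had 4.01 to 4.43 and Krt13 at 3.21 to 4.30. Each group held 1 or 2 of the 8, and exact two-sided permutation tests of the mean squamous level gave p from 0.2 to 1 over 9 pairs of groups, where 0.1 is the smallest that 3 against 3 allows. S100a8 spanned 8.28 to 11.08 (median 9.82) in the arrays with these transcripts and 8.31 to 11.58 (median 9.93) in those without. Each resiquimod group held 1 array with and 2 without them, so treatment was not balanced between the pooled arrays. These spans and medians therefore cannot show the part of squamous epithelium. Leaving out the 8 arrays left 1 or 2 lungs a group and 4 residual degrees of freedom. All 26 called rises after resiquimod then kept their sign, at 0.42 to 2.89 log2, and most lost their call. The difference between 3' and 5' probes of beta-actin, a sign of RNA quality, was 0.371 to 0.384 in A/J ovalbumin and 0.395 to 0.568 in A/J resiquimod lungs, and 0.419 to 0.671 and 0.337 to 0.448 in C57BL/6. The array of C57BL/6 ovalbumin replicate 2 stood apart, at 0.671 for beta-actin and 0.556 for Gapdh, where the other 17 arrays reached at most 0.568 and 0.104. Without it, 5 of the 9 genes were called for resiquimod against ovalbumin in C57BL/6, S100a8 (1.58, adjusted p = 0.0351), Ngp, Stfa2l1, Camp and Mmp8, while S100a9 (1.54, adjusted p = 0.0596) and Mmp9 (0.59, adjusted p = 0.0620) were not. Between strains after ovalbumin, Mmp9 (-0.83, adjusted p = 0.00634) and Ltf (-0.60, adjusted p = 0.0389) were called without it, and S100a8 (-1.12, adjusted p = 0.144) and S100a9 (-1.16, adjusted p = 0.171) were not. Lung markers such as the surfactant gene Sftpc stayed near the top of the scale in every group, with list means of 11.33 to 11.56. Of 11 such markers, 1 was called higher and 1 lower after resiquimod against ovalbumin in A/J, and 1 higher and 2 lower in C57BL/6.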

How the data were processed

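The deposited table holds log2 expression values that the authors made with RMA from the affy package, as the submitters' processing notes name them without a version; RMA subtracts background, gives all arrays 1 distribution of intensities and combines the probes of a set into 1 value. The table has 45101 probe sets with values from 2.00 to 14.03, of which 64 controls were left out. Per GEO's platform annotation 34945 of the 45037 others name 1 gene, 932 several and 9160 none.

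Values were fitted in R 4.3.3 with limma 3.58.1 as 6 group means over 18 arrays (12 residual and 4.30 prior degrees of freedom) and moderated with eBayes. Its two-sided p was adjusted by Benjamini-Hochberg over all 45037 probe sets of each of 11 comparisons, and called under 0.05. Changes are log2 differences ± SE, with 95% confidence intervals. The SE of a gene rests on 1 spread shared by all 6 groups, although the groups differed in spread. For S100a8 the SD was 0.11 in A/J ovalbumin, 0.79 in A/J PBS and 0.75 in A/J resiquimod lungs. An SE can therefore be too small for the groups that spread widely and too large for the others. Deviations from the group means of samples with the same replicate number correlated above 0.1 in every pair for resiquimod against PBS in A/J (0.157 to 0.502). In C57BL/6 the same comparison gave -0.214, -0.585 and -0.349. The labels number the replicates but do not say that samples of equal number were paired. Nothing says that samples of a group come from separate litters or days, so p-values measure the spread between these samples.

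The 9 genes and the marker and companion lists were chosen with earlier results of these data known. Named besides the 9 are, per companion list, up to 4 called genes with the largest change, per gene the 5 others with the highest Pearson r, and, chosen after their values were seen, Csf3r and Elane as neutrophil genes that were not called, Krt13 and Sftpc as markers, and Il1a, Mmp13, Timp2, Cxcl15, Cxcl5 and Ager as further called companions. Alternatives left out each array in turn or changed the normalization, scaling, filter, variance model, array weights, samples, probe set, squamous arrays or pairing.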

Additional observations from a re-analysis of the deposited data

How the results depend on the processing

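The called rises of the 9 genes kept their direction in all fits, and no called value was reversed; 40 sign changes in fits without 1 array and 12 in the others concerned values called neither before nor after. Without the 8 arrays with squamous transcripts, a fit with 10 arrays and 4 residual degrees of freedom, most calls of members were lost. For the alternative fits of this paragraph the share of all probe sets called is not given. A loss of calls in them is therefore not shown to be particular to the 9 genes. With only probe sets above the median level, which leaves out Stfa2l1, Camp, Mmp8 and Il1r2, 4 members were called in either strain against ovalbumin and 3 in A/J against PBS. Array weights gave 1 call between strains after PBS and 1 after ovalbumin, an intensity trend with robust prior gave 1 after ovalbumin, and a fit of the compared groups alone gave 1 after resiquimod. The intensity trend fit also ended the S100a8 and S100a9 calls against ovalbumin in C57BL/6 and the S100a9 call against PBS in A/J. With the compared groups alone, S100a8 and S100a9 were not called against PBS in A/J. Repeated quantile normalization ended the Mmp9 call against ovalbumin in C57BL/6. The cause was not tested. Leaving out 1 array gave 0 to 1 calls for ovalbumin against PBS in A/J, 0 to 1 between strains after PBS, 1 to 3 after ovalbumin, 0 to 3 after resiquimod, and 3 to 5 for resiquimod against ovalbumin in C57BL/6. Samples with the same replicate number deviated together in 15 of 27 pairs (correlation above 0.1), and in all 3 pairs only for resiquimod against PBS in A/J (0.157 to 0.502); in 1 of 9 comparisons did every sample correlate best with its own number. The replicate block changed 2 of 99 calls, S100a9 (adjusted p = 0.0409, from 0.0146 to 0.259 over the 10 alternatives) and Mmp9 (0.0425, from 0.0139 to 0.469) for resiquimod against PBS in C57BL/6, where 8 members were then called, and none in that A/J comparison. Ngp, Camp, Mmp8, Il1r2 and Stfa2l1 lie near the median of all values or below it in most lungs, so that a fall there could hardly be measured.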

Other observations

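In the IL-1 system, of which Il1r2 is the decoy receptor, 0 of 7 measured genes rose and 2 fell after resiquimod against ovalbumin in each strain (median changes 0.014 in A/J and -0.12 in C57BL/6). The alarmin Il33 fell by 1.47 ± 0.18 in A/J and by 1.20 ± 0.18 in C57BL/6, after rises with ovalbumin of 1.30 ± 0.18 and 0.83 ± 0.18. The signalling receptor Il1r1 fell by 0.42 ± 0.08 and by 0.57 ± 0.08. Against PBS, resiquimod raised the cytokine Il1b in both strains (1.37 ± 0.36 and 1.12 ± 0.36) and Il1a in A/J (0.56 ± 0.16). Il1rn, the receptor antagonist, rose with ovalbumin in A/J (1.05 ± 0.18).

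Among inhibitors and relatives of Mmp8 and Mmp9, 3 of 8 genes fell in A/J and 5 of 8 in C57BL/6 after resiquimod against ovalbumin, and 0 rose (medians -0.23 and -0.41). Timp1, the inhibitor that binds Mmp9, rose with ovalbumin by 2.83 ± 0.15 in A/J and 2.56 ± 0.15 in C57BL/6 and fell after resiquimod by 2.00 ± 0.15 and by 1.49 ± 0.15. Mmp12, the macrophage elastase, rose with ovalbumin by 2.56 ± 0.29 and 2.01 ± 0.29 and fell by 2.28 ± 0.29 and by 1.09 ± 0.29. Mmp13, a collagenase, fell by 0.52 ± 0.08 in A/J, and Mmp2, Mmp3 and Timp2 fell in C57BL/6 by 0.59 ± 0.14, by 0.57 ± 0.14 and by 0.23 ± 0.06. The comparisons share the ovalbumin arrays, so a rise and a fall of 1 gene are not independent.

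Of 11 genes for neutrophil growth and attraction 1 rose and 2 fell in A/J, and 0 rose and 4 fell in C57BL/6 (medians -0.25 and -0.18). The chemokine Cxcl3 rose in A/J, by 3.30 ± 0.45 with ovalbumin and by a further 1.93 ± 0.45 after resiquimod, and was at 0.47 ± 0.45 and -0.18 ± 0.45 in C57BL/6. Cxcl2 rose against PBS in A/J (2.78 ± 0.63). Selp, the selectin of endothelium and platelets, fell by 1.27 ± 0.24 in A/J and by 1.45 ± 0.24 in C57BL/6, the lung chemokine Cxcl15 by 0.39 ± 0.06 and by 0.35 ± 0.06, and Cxcl5 and Sele in C57BL/6 by 0.52 ± 0.13 and by 0.71 ± 0.16.

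Of 11 other S100 genes 0 rose and 1 fell in A/J and 1 rose and 1 fell in C57BL/6 against ovalbumin (medians -0.053 and 0.043). S100g fell by 0.63 ± 0.09 in A/J and by 0.47 ± 0.09 in C57BL/6, and S100a10 rose by 0.61 ± 0.08 in C57BL/6. Of 6 partners of calprotectin and cathelicidin 0 were called in A/J, with 1 up and 1 down in C57BL/6 (medians 0.013 and -0.051). There the activation antigen Cd69 rose by 1.20 ± 0.13, and Ager, a receptor for S100 proteins, fell by 0.22 ± 0.07. Tlr4, the endotoxin receptor that calprotectin can engage, rose with ovalbumin in A/J (0.50 ± 0.11).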
